A study of Mus musculus with 19 samples.

Results

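The expression of 10 keratin genes of the epidermis, of 18521 genes in the deposited table, was followed in mouse skin with and without basal cell carcinoma (BCC). The rule lists them by name and uses no measured value, though it was set with earlier results of these data known. The basal keratins are Krt5, Krt14 and Krt15 (3 genes), the suprabasal keratins are Krt1, Krt10 and Krt2 (3 genes), and the wound keratins are Krt6a, Krt6b, Krt16 and Krt17 (4 genes). All 10 passed the filter on low counts that left 15760 genes for testing.

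Keratins are the intermediate filament proteins of epithelial cells, and a filament needs a type II keratin paired with a type I keratin. Dividing cells of the basal layer pair Krt5 (type II) with Krt14 (type I), while Krt15 (type I) marks basal cells and the stem cell region of the hair follicle. Cells that leave the basal layer switch to Krt1 (type II) with Krt10 (type I), and Krt2 (type II) joins late in the upper layers of some body sites. Krt6a and Krt6b (type II), with Krt16 and Krt17 (type I), belong to hair follicles, nails and other skin appendages in resting skin and are induced between follicles at wound edges and in inflamed epidermis. Krt17 is also known as a keratin of BCC.

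All mice, healthy ones included, were females that carried Ptch1+/-, K14-CreER2 and p53fl/fl together. Cre is driven there by the promoter of keratin 14, itself one of the genes described here. Healthy skin was not induced (5 mice, 6 libraries, ages 128 to 137 days). The other groups had received 3 intraperitoneal injections of 300 µg tamoxifen and 1 x-ray dose of 4 Gy: untreated BCC skin (4 mice, 278 to 320 days old), BCC skin after 1 treatment with ablative fractional laser (AFL, a laser that vaporises narrow columns of skin) at 5% density and 40 mJ per microbeam (3 mice, 4 libraries, 228 to 326 days old), and BCC skin after 8 treatments with vismodegib, a drug that blocks the Hedgehog pathway at Smoothened, given 2 times a day (4 mice, 5 libraries, 268 to 326 days old). Harvest was on day 4 per the labels, 130 to 144 days after induction for BCC, 80 to 126 days for AFL and 109 to 137 days for vismodegib. Healthy mice were younger than all induced mice, so age, induction and carcinoma cannot be told apart in comparisons with healthy skin, and no vehicle or sham group was analysed here.

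Library totals lay between 27185900 and 33556600 counts. Normalised expression is given as CPM, counts relative to the library size after TMM scaling, which sets most genes level between mice. The vismodegib mouse 9 stood apart, with a scaling factor of 0.591 where all other mice had 0.906 to 1.18, and the main vismodegib results are given with and without it. Mouse 16 (healthy) was labelled with 2 libraries of different ages, 128 and 135 days, and is counted as 1 mouse. Trp53, which Cre removes, was at 119 ± 17.8 CPM (SD, n = 5) in healthy skin and at 29.8 ± 5.40 CPM (SD, n = 4) in BCC skin, with AFL (38.9 ± 6.84, SD, n = 3) and vismodegib (40.1 ± 16.3, SD, n = 4) also low.

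Sequences are shown first because members of the family share long stretches, and an expected count divides reads from them between genes. In the GENCODE M21 transcripts (GRCm38), 29.5% of the 100-base words of Krt6a also occur in Krt6b, and the coding sequences of both differ at 37 of 1662 aligned bases (97.8% identity). The stretch in which they differ most is coding bases 751 to 870, counted from 1 at the A of the start codon, where 17 of 120 bases differ, shown in capitals.
Krt6a: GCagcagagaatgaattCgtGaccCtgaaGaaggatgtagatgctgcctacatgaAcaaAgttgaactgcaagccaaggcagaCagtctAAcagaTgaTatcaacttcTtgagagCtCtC
Krt6b: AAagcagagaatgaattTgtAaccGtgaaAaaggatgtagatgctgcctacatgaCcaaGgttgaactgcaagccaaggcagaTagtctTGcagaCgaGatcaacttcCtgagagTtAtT
Reads from this window can be assigned to one gene, whereas reads from the shared words cannot.

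Krt14 and Krt16, both type I, were 86.5% identical in coding sequence and shared 2.88% of Krt14's 100-base words. One shared stretch, coding bases 306 to 425 of Krt14 and 282 to 401 of Krt16, had no difference over 120 bases.
Krt14: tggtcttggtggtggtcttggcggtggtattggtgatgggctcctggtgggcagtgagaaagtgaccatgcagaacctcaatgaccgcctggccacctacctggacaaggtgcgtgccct
Krt16: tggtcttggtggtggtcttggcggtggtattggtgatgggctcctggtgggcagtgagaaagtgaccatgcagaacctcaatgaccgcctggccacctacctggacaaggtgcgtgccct
Krt16 also shared 21.1% of its 100-base words with the predicted gene Gm11597, which the table does not list under that symbol. Krt1, Krt10, Krt2, Krt15 and Krt17 shared no 100-base word with another gene. Sharing was larger for 50-base words, at 14.4% for Krt14, 8.52% for Krt5, 3.99% for Krt17 and 0.666% for Krt15. On that scale Krt6a shared 49.5%, Krt6b 50.1% and Krt16 37.6%, and Krt1, Krt10 and Krt2 again shared no word. Values for Krt6a, Krt6b and Krt16 are therefore less certain than those of the other members.

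The share of the transcriptome taken by keratins was highest after vismodegib. The 10 genes gave 1.80 ± 0.251% of all counts in healthy mice (SD, n = 5), 2.35 ± 0.548% in BCC (SD, n = 4), 3.38 ± 1.26% after AFL (SD, n = 3) and 6.10 ± 0.893% after vismodegib (SD, n = 4; 5.75 ± 0.699% without mouse 9, n = 3). Every vismodegib mouse (4.95 to 7.13%) was above every other mouse, whose highest value was 4.59%. Within the keratin counts, the basal share averaged 61.4% in healthy, 55.1% in BCC, 47.1% in AFL and 37.05% in vismodegib skin. The suprabasal share averaged 16.9%, 19.4%, 21.0% and 17.5% in the same order, and the wound share 21.7%, 25.5%, 31.97% and 45.5% (41.7% without mouse 9). By mouse, the wound share was 11.0 to 27.9% in healthy and 13.6 to 32.4% in BCC skin. It was 18.4 to 44.4% in AFL and 37.0 to 56.7% in vismodegib skin, so each group overlapped the next. In these bulk samples, more keratinocytes and more keratin RNA per keratinocyte cannot be told apart.

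**Figure D1:**
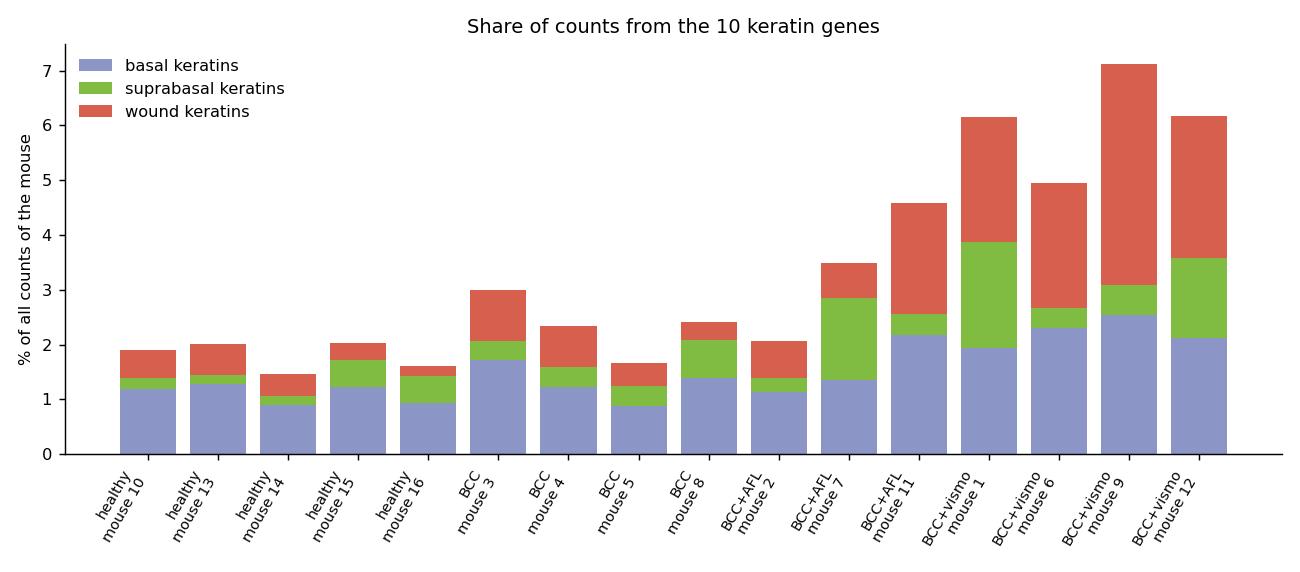
Share of all counts (%) from the 10 keratin genes in each of the 16 mice, with bars starting at 0 and stacked by basal, suprabasal and wound class. The 4 vismodegib mice reach 4.95 to 7.13%, and the wound class makes up most of the bar in mouse 9.

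The order of the genes differed between groups. On the per-length scale (CPM per kilobase of transcript), Krt5 was the highest keratin in all 5 healthy mice, at 2557 ± 458 (SD, n = 5), ahead of Krt14 (1905 ± 366) and Krt17 (1687 ± 630), whose ranges overlapped. In BCC skin Krt5 was highest in 2 mice, Krt14 in 1 and Krt17 in 1. Krt14 was highest in 3 of 3 AFL mice and in 4 of 4 vismodegib mice, where it reached 10272 ± 5442 CPM per kilobase (SD, n = 4). Krt6b stood ninth of the 10 genes by mean in healthy and BCC skin and second in vismodegib skin, and Krt2 was last in every group. The vismodegib mean of Krt6b was raised by mouse 9 (12710 CPM per kilobase). By mouse, Krt6b had rank 2 in mouse 9, rank 3 in mouse 12 and rank 6 in mice 1 and 6.

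**Figure D2:**
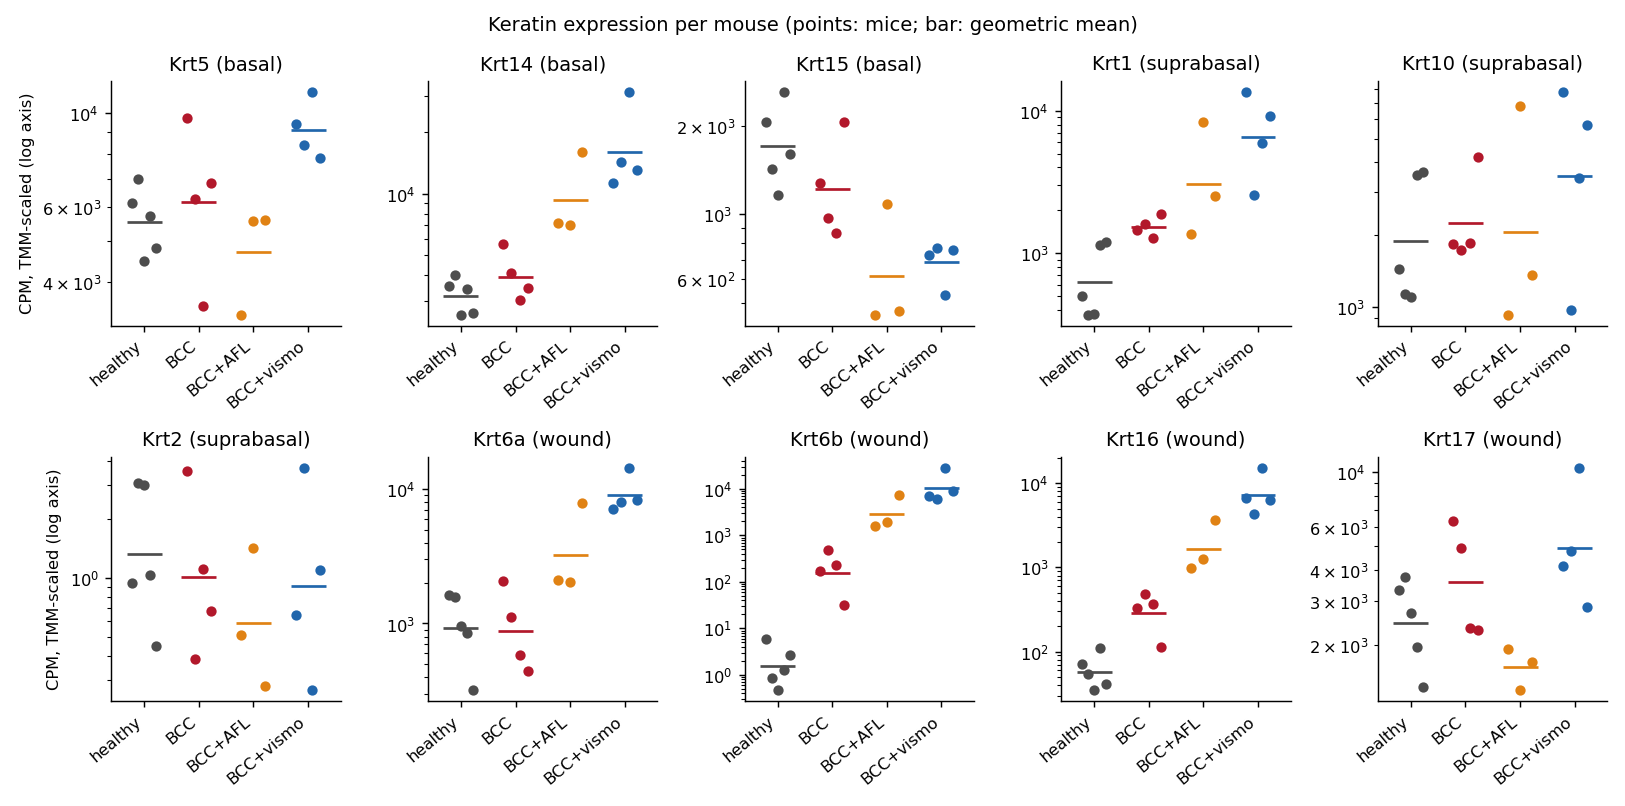
Expression of each keratin (CPM on a log axis whose range differs between panels) in healthy, BCC, AFL-treated (BCC+AFL) and vismodegib-treated (BCC+vismo) skin, 1 point per mouse with the geometric mean as a bar. Krt6b and Krt16 step up from group to group, while Krt10 and Krt2 overlap in all groups.

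Among the basal keratins, Krt14 rose with vismodegib while its partner Krt5 did not pass the test. Krt14 measured 3539, 4019, 2578, 3415 and 2623 CPM in the healthy mice and 5664, 4085, 3027 and 3464 CPM in the BCC mice. After AFL it measured 7159, 7034 and 15893 CPM, and after vismodegib 11264, 14243, 31179 and 13083 CPM. Every treated mouse was above every BCC and healthy mouse, and the vismodegib mouse 9 was the highest. Krt14 was 4.30-fold higher in vismodegib than in BCC skin (log2 fold change 2.10, SE 0.40, adjusted p = 0.00286, edgeR quasi-likelihood F test), and without mouse 9 the log2 fold change was 1.67 (adjusted p = 0.00447). For AFL against BCC the log2 fold change was 1.30 (SE 0.41) with an adjusted p of 0.0674, which missed the threshold.

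Krt5 measured 6125, 6967, 4471, 5711 and 4810 CPM in healthy mice and 9697, 6256, 3509 and 6820 CPM in BCC mice. It measured 3356, 5570 and 5600 CPM after AFL and 9404, 8409, 11166 and 7804 CPM after vismodegib. The vismodegib mice overlapped neither the AFL nor the healthy mice, yet no comparison passed the edgeR test: the log2 fold change was 0.48 (SE 0.32, adjusted p = 0.308) for vismodegib and -0.44 (SE 0.35, adjusted p = 0.525) for AFL, each against BCC. DESeq2 called Krt5 lower after AFL than after vismodegib (adjusted p = 0.0245) and higher after vismodegib than in healthy skin (adjusted p = 0.0488). The ratio of Krt5 to Krt14 CPM was 1.67 to 1.83 in healthy mice, 1.16 to 1.97 in BCC mice, 0.352 to 0.792 in AFL mice and 0.358 to 0.835 in vismodegib mice.

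Krt15 was lower in treated than in healthy skin. It measured 2056, 1426, 1166, 2608 and 1603 CPM in healthy mice, 1281, 970.5, 860 and 2067 CPM in BCC mice, 455, 1087 and 467 CPM after AFL, and 724, 768, 532 and 757 CPM after vismodegib. All 7 treated mice lay below all 5 healthy mice. Against healthy skin Krt15 fell with AFL (log2 fold change -1.40, adjusted p = 0.0305) and with vismodegib (-1.35, adjusted p = 0.0225). With a score of hair growth, described below, as a covariate, the values were also -1.40 and -1.35 and neither passed (adjusted p = 0.120 and 0.0507). Against BCC the log2 fold changes were -0.95 (adjusted p = 0.172) for AFL and -0.90 (adjusted p = 0.0933) for vismodegib.

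Among the suprabasal keratins, Krt1 rose with vismodegib and its partner Krt10 did not pass the test. Krt1 measured 504, 371, 374, 1149 and 1197 CPM in healthy mice and 1453, 1593, 1270 and 1890 CPM in BCC mice. It measured 1370, 8381 and 2522 CPM after AFL and 13534, 2574, 5899 and 9184 CPM after vismodegib. The vismodegib mice were all above the BCC mice, and AFL mouse 2 lay within the BCC range. Krt1 was 5.03-fold higher in vismodegib than in BCC skin (log2 fold change 2.33, SE 0.61, adjusted p = 0.0174; 2.45 without mouse 9, adjusted p = 0.0229). For AFL against BCC the log2 fold change was 1.40 (SE 0.62, adjusted p = 0.210).

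Krt10 measured 1446, 1137, 1106, 3520 and 3622 CPM in healthy mice and 1836, 1722, 1847 and 4213 CPM in BCC mice. It measured 933, 6806 and 1365 CPM after AFL and 7785, 978, 3424 and 5695 CPM after vismodegib. All groups overlapped, and the largest log2 fold change against BCC was 0.89 (SE 0.68, adjusted p = 0.383, vismodegib). The ratio of Krt1 to Krt10 was 0.326 to 0.348 in the 5 healthy mice, 0.449 to 0.925 in BCC mice, 1.23 to 1.85 in AFL mice and 1.61 to 2.63 in vismodegib mice. Healthy, BCC and treated mice did not overlap in this ratio, whereas AFL and vismodegib mice did.

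Krt2 was near the limit of detection, at 0.95, 3.1, 3.0, 1.0 and 0.45 CPM in healthy mice, 3.5, 0.38, 1.1 and 0.68 CPM in BCC mice, 0.51, 1.4 and 0.28 CPM after AFL, and 0.65, 3.7, 0.27 and 1.1 CPM after vismodegib. It passed no test, and its ratio to Krt1 was at most 0.00840 in any mouse.

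Some of the spread within healthy and vismodegib skin ran alongside hair growth. A growing-hair score, the mean log2 CPM of 13 hair shaft keratins, was 7.29 to 8.08 in healthy mice 10, 13 and 14, which had the 3 lowest Krt1 values of all mice, and 5.47 and 1.22 in healthy mice 15 and 16. In vismodegib skin mouse 6 scored 6.70 and had the lowest Krt1 and Krt10 of its group, while the other 3 scored below 0. BCC mouse 3 scored 7.02, the other BCC mice -0.88 to 1.08, and the AFL mice -2.50 to 1.94. The BCC and AFL mice did not follow the score in this way. BCC mouse 3 lay within the range of the other BCC mice for Krt1 and Krt10. AFL mouse 2 (score -1.68), and not the highest-scoring AFL mouse 11 (1.94), had the lowest Krt1 and Krt10 of its group. With the score as a covariate, all 5 calls of vismodegib against BCC were kept, while against healthy skin the Krt1 call of AFL (log2 fold change 1.43, adjusted p = 0.241) and both Krt15 calls were not. Krt6a gained a call for AFL against healthy (3.10, adjusted p = 0.00698) and against BCC (2.38, adjusted p = 0.0109). Libraries of 1 mouse could differ too: in vismodegib mouse 12, Krt10 was 2565 CPM in one library and 8695 CPM in the other, a 3.39-fold gap.

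**Figure D3:**
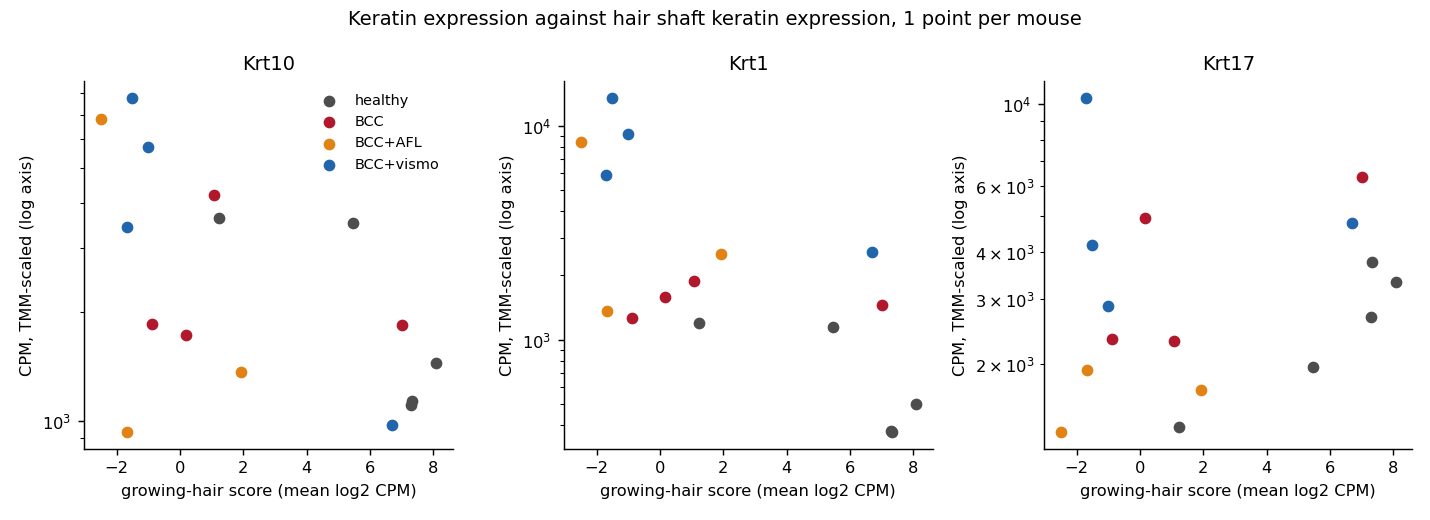
Krt10, Krt1 and Krt17 (CPM, log axis) against the growing-hair score (mean log2 CPM of hair shaft keratins), 1 point per mouse, coloured by group. Healthy mice 10, 13 and 14, at scores of 7.29 to 8.08, hold the lowest Krt1 values, and mice fall into separate clusters along the score, so no pooled correlation is tested.

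The wound keratins Krt6b and Krt16 rose in BCC skin and again with each treatment. Krt6b measured 5.8, 0.87, 0.47, 1.3 and 2.7 CPM in healthy mice and 172, 479, 232 and 31.9 CPM in BCC mice. It measured 1561, 1934 and 7435 CPM after AFL and 7195, 6028, 28407 and 8966 CPM after vismodegib. Healthy, BCC and treated mice formed 3 ranges that did not overlap, and AFL and vismodegib overlapped through AFL mouse 11. The log2 fold change was 6.68 (SE 0.95, adjusted p = 0.000845) for BCC against healthy, 3.99 (SE 0.95, adjusted p = 0.0148) for AFL against BCC and 5.79 (SE 1.01, adjusted p = 0.00177) for vismodegib against BCC. Krt6b was near the floor in healthy skin (mean 2.2 CPM, against 229 CPM in BCC). The size of its fold change against healthy skin therefore rests on few healthy counts.

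Krt6a, the near-identical copy, passed the test with vismodegib and not between healthy and BCC skin. It measured 1639, 1575, 960, 856 and 319 CPM in healthy mice, 2070, 1115, 582 and 446 CPM in BCC mice, 2089, 2025 and 7862 CPM after AFL, and 7055, 8018, 14387 and 8259 CPM after vismodegib. The log2 fold change was -0.02 (SE 0.55, adjusted p = 0.989) for BCC against healthy, 1.92 (SE 0.63, adjusted p = 0.0760) for AFL against BCC and 3.16 (SE 0.63, adjusted p = 0.00371) for vismodegib against BCC. The ratio of Krt6b to Krt6a was at most 0.00851 in healthy mice, 0.0716 to 0.430 in BCC, 0.747 to 0.955 in AFL and 0.752 to 1.97 in vismodegib mice. How reads shared by both genes were divided in each group was not tested. With both genes summed, BCC against healthy gave a log2 fold change of 0.26 (adjusted p = 0.885), AFL against BCC 2.57 (adjusted p = 0.0277) and vismodegib against BCC 4.11 (adjusted p = 0.00161).

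Krt16 measured 70.6, 54.3, 34.8, 109 and 41.7 CPM in healthy mice and 333, 487, 369.5 and 112 CPM in BCC mice. It measured 978, 1256 and 3627 CPM after AFL and 6701, 4353, 15228 and 6312 CPM after vismodegib. The 4 groups formed 4 ranges with no overlap, BCC mouse 8 lying just above the highest healthy mouse. The log2 fold change was 2.39 (SE 0.52, adjusted p = 0.0162) for BCC against healthy, 2.59 (SE 0.59, adjusted p = 0.0109) for AFL against BCC and 4.65 (SE 0.62, adjusted p = 0.000361) for vismodegib against BCC. Between treatments Krt16 was lower after AFL than after vismodegib (log2 fold change -2.06, SE 0.61, adjusted p = 0.0463).

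Krt17, the keratin associated with BCC, followed another course. It measured 3322, 3756, 2682, 1964 and 1355 CPM in healthy mice and 6356, 4926, 2344 and 2308 CPM in BCC mice. It measured 1935, 1316 and 1702 CPM after AFL and 4174, 4783, 10362 and 2860 CPM after vismodegib. The AFL mice were below all BCC and all vismodegib mice, but of its 6 comparisons the one between treatments alone passed the test (log2 fold change -1.75, SE 0.51, adjusted p = 0.0413), with -1.27 (SE 0.50, adjusted p = 0.147) for AFL against BCC. For BCC against healthy it was 0.61 (SE 0.42, adjusted p = 0.560). For vismodegib against BCC the edgeR log2 fold change was 0.48, and -0.0087 without mouse 9. DESeq2 called Krt17 higher after vismodegib than in healthy skin (log2 fold change 1.10, adjusted p = 0.0450).

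Counted over the family with edgeR's quasi-likelihood F test, 2 of 10 keratins rose and 0 fell in BCC against healthy, where 2.82% of all genes tested changed (2.66% higher, 0.159% lower). For AFL against BCC 2 rose and 0 fell, beside 7.75% of all genes (6.1% higher, 1.65% lower). For vismodegib against BCC 5 rose and 0 fell, beside 17% of all genes (8.03% higher, 9% lower). At an unadjusted p under 0.05, 0, 2 and 1 members were lower in these 3 comparisons, and DESeq2 called Krt17 lower with AFL and Krt15 lower with vismodegib. For AFL against BCC, DESeq2 also called Krt14 (adjusted p = 0.0157) and Krt6a (adjusted p = 0.0196) higher, and limma voom called Krt14 higher (adjusted p = 0.0434). Between AFL and vismodegib 2 were lower after AFL and 0 higher (3 and 0 at an unadjusted p under 0.05), beside 9.15% of all genes (6.69% higher, 2.46% lower). Against healthy skin 4 rose and 1 fell with AFL, beside 9.24% of all genes (7.95% higher, 1.29% lower), and 5 rose and 1 fell with vismodegib, beside 11.6% (7.57% higher, 4.07% lower). Members whose groups did not overlap numbered 3 for BCC against healthy (6.65% of all genes), 4 for AFL against BCC (18.8%), 6 for vismodegib against BCC (16.4%), 3 for AFL against vismodegib (22.2%), 6 for AFL against healthy (25.7%) and 7 for vismodegib against healthy (16.1%). The median log2 fold change of the 10 members was 0.28, 0.82 and 1.499 in the first 3 of these comparisons, beside medians of -0.0036, -0.037 and 0.054 over all genes. The comparisons of each treatment with BCC share the 4 BCC mice.

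**Figure D4:**
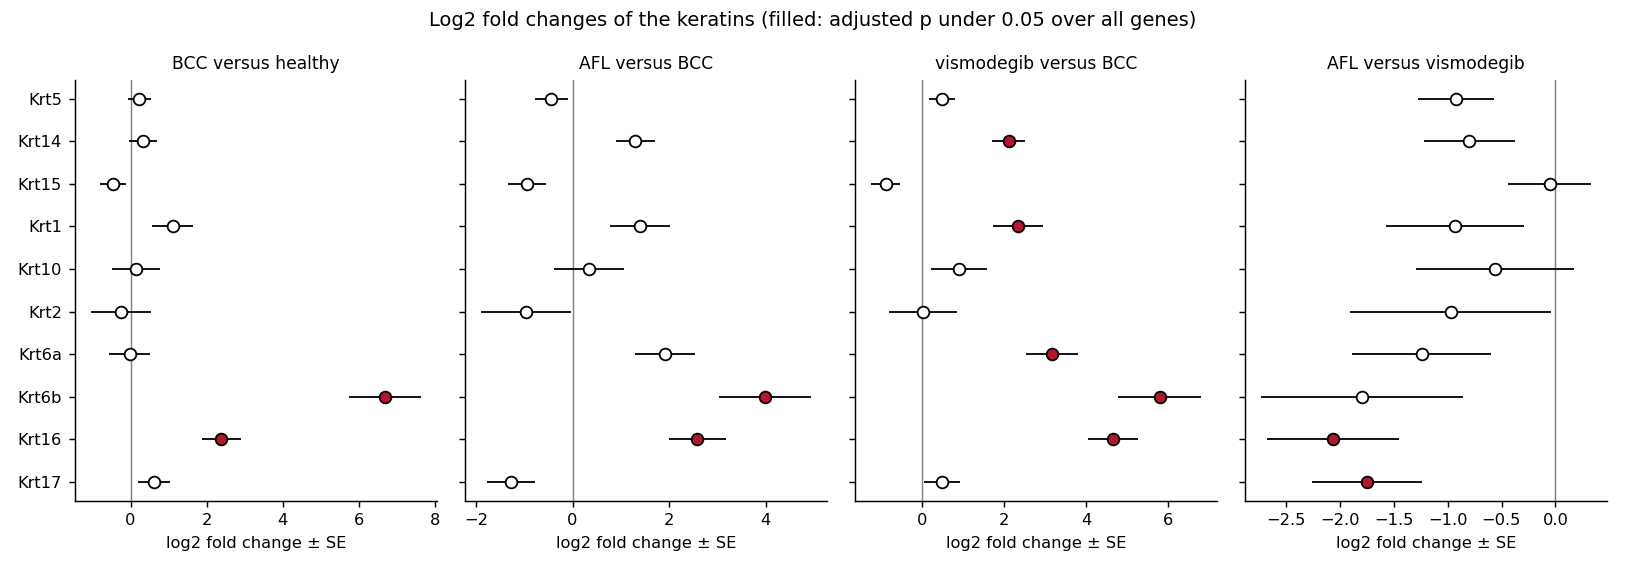
Log2 fold change with its standard error for the 10 keratins in 4 comparisons (x axes differ in range), filled where the adjusted p over 15760 genes was under 0.05. Krt6b and Krt16 are filled in the first 3 panels, and Krt16 and Krt17 in the comparison of AFL with vismodegib.

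Some calls rested on few animals. Without AFL mouse 11, neither Krt6b (log2 fold change 2.89, adjusted p = 0.115) nor Krt16 (1.74, adjusted p = 0.124) passed for AFL against BCC, and Krt6a, not called with it, was at 0.93 in place of 1.92. Without vismodegib mouse 9, the 5 calls of vismodegib against BCC were kept, with 5.04 for Krt6b, 4.17 for Krt16 and 2.88 for Krt6a, whereas Krt16 (-1.60, adjusted p = 0.0870) and Krt17 (-1.29, adjusted p = 0.0805) did not pass between treatments. For BCC against healthy, Krt16 did not pass without healthy mouse 13 (adjusted p = 0.0559), healthy mouse 14 (0.0562) or BCC mouse 4 (0.0698). Between treatments both calls were also lost without healthy mouse 14, AFL mouse 2 or 7, or vismodegib mouse 1, and at least 1 of them without healthy mouse 10, 13, 15 or 16, BCC mouse 4 or 5, AFL mouse 11 or vismodegib mouse 12. Against healthy skin, the AFL calls of Krt14 and Krt15 were lost without AFL mouse 11, that of Krt15 also without healthy mouse 10 or 15 or AFL mouse 2, and that of Krt1 without AFL mouse 7. The Krt15 call of vismodegib against healthy was lost without healthy mouse 15 or vismodegib mouse 9. With age as a covariate among induced mice, no keratin passed for AFL against BCC, and Krt6a, Krt6b and Krt16 were the 3 that passed for vismodegib against BCC. The log2 fold changes of the lost calls were 3.89 for Krt6b and 2.57 for Krt16 with AFL, and 2.0002 for Krt14 and 2.20 for Krt1 with vismodegib. With days since induction as the covariate, Krt1 did not pass for vismodegib against BCC (log2 fold change 1.59, adjusted p = 0.0531) and neither keratin passed between treatments.

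Ratios within a mouse do not depend on scaling, and 9 of them were compared in 6 contrasts (54 exact permutation tests, 2-sided). Of these, 32 had groups that did not overlap, and 26 had an unadjusted p under 0.05, but none passed after Benjamini-Hochberg adjustment over the 54, the lowest adjusted p being 0.0771. The smallest exact p that 3 against 4 mice allow is 0.0571, and that of 5 against 4 is 0.0159. Over 54 tests, no ratio of a treatment against BCC could pass the adjustment at these group sizes, whatever its values. Only comparisons of 5 against 4 mice could, and only with every ratio in them at its smallest p. No conclusion is drawn from the lack of a pass. Of the 54 tests, 32 were at the smallest p their groups allow. Besides the partners above, Krt16 to Krt14 was 0.0135 to 0.0320 in healthy, 0.0324 to 0.122 in BCC, 0.137 to 0.228 in AFL and 0.306 to 0.595 in vismodegib mice, 4 ranges without overlap. Krt17 to Krt14 was 0.517 to 1.04 in healthy and 0.666 to 1.21 in BCC mice, against 0.107 to 0.270 in AFL and 0.219 to 0.371 in vismodegib mice. Krt15 to Krt14 was 0.226 to 0.597 in BCC mice and at most 0.155 in treated mice.

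**Figure D5:**
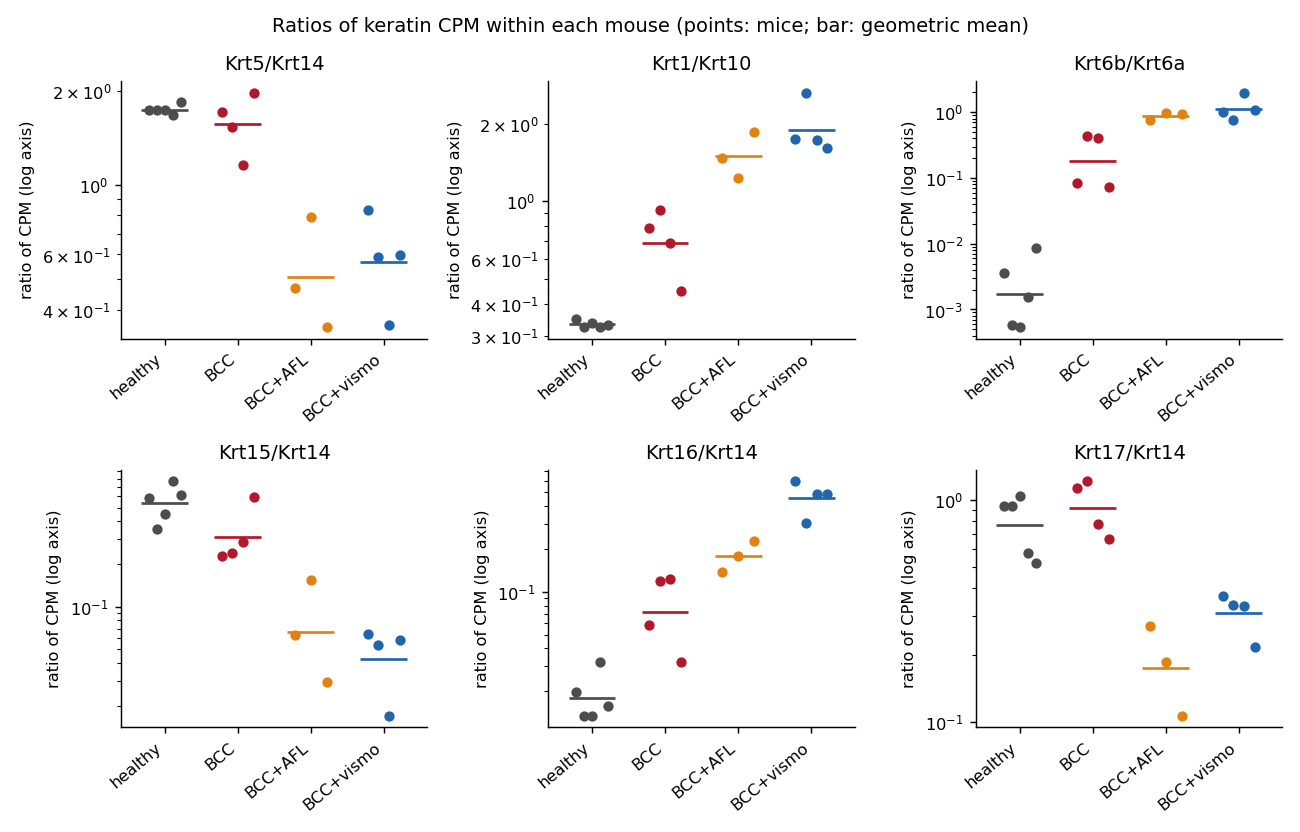
Ratios of the CPM of paired keratins within each mouse (log axis), 1 point per mouse with the geometric mean as a bar. Krt5/Krt14 is 1.16 or more in every untreated mouse and at most 0.835 in every treated one, and Krt1/Krt10 is 0.326 to 0.348 in healthy mice.

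Members also differed in which keratins they varied with. Over the 16 mice, Pearson's r of log2 CPM was 0.965 between Krt6b and Krt16, 0.945 between Krt14 and Krt6a and 0.726 between Krt1 and Krt10. With group means removed, Krt1 and Krt10 had the highest value, 0.969, and Krt6b with Krt16 had 0.792. These are descriptions over mice that share groups. Of 13957 other genes, those most like each member over the 16 mice were Csta3 (r = 0.959) for Krt14, Klk9 (0.965) for Krt1, Klk7 (0.941) for Krt6a, Teddm3 (0.982) for Krt6b, Tcf23 (0.980) for Krt16, Lypd3 (0.913) for Krt5, Sh3d21 (0.932) for Krt15, Tapbpl (0.941) for Krt10, Retreg3 (0.889) for Krt2 and Psrc1 (0.914) for Krt17. Without mouse 9 these 10 values ran from 0.872 to 0.982.

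Companion genes of each layer moved as follows. Of 15 basal adhesion and identity genes, 4 rose in BCC against healthy, among them Col7a1, the collagen of anchoring fibrils (log2 fold change 2.06), and the laminin chain Lamb3 (1.42). With vismodegib 2 of the 15 fell, Col7a1 (-1.97) and Lamb3 (-0.996), and with AFL 2 fell, the cadherin Cdh3 (-1.71) and the adhesion molecule Epcam (-0.79). Of 18 suprabasal and cornification genes tested, 8 rose and 0 fell with vismodegib, against 1 and 0 with AFL (Casp14, a protease of cornifying cells, 1.43). At an unadjusted p under 0.05, 9 were higher and 1 lower with vismodegib. Log2 fold changes over the 18 ran from -1.78 to 3.11 there. Those that rose with vismodegib include Casp14 (1.88), the desmosomal cadherin Dsg1b (1.87) and the barrier regulator Grhl3 (1.82). Without mouse 9, 5 of the 18 rose with vismodegib, these 3 among them. Of 10 desmosome genes, Dsg3 rose with vismodegib (1.12; 1.17 and adjusted p = 0.0634 without mouse 9), and Pkp2 fell in BCC against healthy (-1.0005).

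Of 20 wound-edge genes, 9 rose and 1 fell with AFL, and 9 rose and 1 fell with vismodegib, each against BCC. The genes that rose were only partly the same. Between treatments, 6 of the 20 were higher after AFL and 0 lower (8 and 6 at an unadjusted p under 0.05). In BCC against healthy 2 rose, the matrix proteases Mmp10 (7.03) and Mmp13 (4.99). Mmp10 and Mmp13 were near 0 in healthy skin (means of 0.026 and 0.30 CPM, against 3.6 and 9.7 CPM in BCC), so these fold changes rest on few counts. The wound-edge genes named for AFL are Plaur, the urokinase receptor (3.09), and the matrix protease Mmp9 (2.82). For vismodegib they are the calprotectin subunits S100a8 (7.70) and S100a9 (7.91) and the alarmin Il33 (3.37). Without mouse 9, 7 of the 20 rose and 0 fell with vismodegib, with S100a8 at 5.71, S100a9 at 6.04 and Il33 at 3.11. Of 14 transcription factors that act on keratin genes, 1 rose and 0 fell in BCC, and 2 rose and 1 fell with AFL. With vismodegib 5 rose and 1 fell (4 and 1 without mouse 9). The Hedgehog effector Gli2 rose in BCC (1.27) and fell with AFL (-1.45) and vismodegib (-1.81). The AP-1 subunit Fosl1 rose with AFL (1.90) and vismodegib (2.00), Fos with AFL (1.73), and Ovol1, a regulator of differentiation, with vismodegib (1.59). Among 15 other epithelial keratins tested, Krt7 and Krt42 rose in BCC (2.70 and 2.48) and fell with vismodegib (-3.55 and -2.02), as did Krt20 with vismodegib (-2.20). Krt20 was near the floor in both groups, with means of 0.207 CPM after vismodegib and 0.999 CPM in BCC. Without mouse 9, Krt7 alone of these 3 keratins passed with vismodegib (-3.48), Krt42 giving -2.01 (adjusted p = 0.104) and Krt20 -1.99 (adjusted p = 0.0682), and Krt42 did not pass in BCC (2.46, adjusted p = 0.0520). Of 8 cell cycle genes 0 changed in these 3 comparisons (edgeR), with 4 higher after vismodegib and 0 elsewhere at an unadjusted p under 0.05.

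Markers of other cells moved with the treatments. The summed CPM of 6 neutrophil markers, which include S100a8 and S100a9, was 7.47 to 22.03 in healthy, 24.8 to 134 in BCC, 93.5 to 2352 in AFL and 2420 to 49354 in vismodegib mice, and 6 of 6 rose with vismodegib and 3 of 6 with AFL. S100a8 and S100a9 averaged 7141 and 8093 CPM after vismodegib and made up most of the sum there. Both are also counted among the wound-edge genes, so the sum is not a separate reading of neutrophils. All 6 macrophage markers rose with AFL (summed CPM 1464 to 1536, against 164 to 280 in BCC) and 3 of 6 with vismodegib, and 5 of 6 endothelial markers rose with AFL. With vismodegib 2 of 6 fibroblast markers fell and 2 of 6 sebaceous markers rose. The summed fibroblast CPM was 3379 to 10841 in healthy, 6470 to 22646 in BCC, 21072 to 21654 in AFL and 3092 to 9665 in vismodegib mice. Without mouse 9, 5 of 5 neutrophil markers tested rose with vismodegib, and the macrophage, fibroblast and sebaceous counts with vismodegib were 3, 2 and 2. Of 6 keratinocyte markers, which include Krt5 and Krt14, Krt14 rose with vismodegib and Epcam fell with AFL. No marker was at 0 in all mice, and the part of these cells in the keratin results was not tested.

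RefSeq promoter windows (250 bases before to 50 after a start, GRCm38.p6) were matched for 4 of the 10 genes, Krt5, Krt14, Krt10 and Krt2. The Krt14 window lies 1517 bases from the start of the GENCODE transcript used here, so it describes another start. The AP-1 letters TGANTCA and the GLI letters TGGGTGGTC, searched on both strands, were in none of the 4, and in 7.81% and 0.253% of all 32851 windows. The C/EBP letters TTNNGNAA occurred 2 times in the windows of Krt10 and Krt14 and 1 time in that of Krt2, and in 40.7% of all windows. The TATA box letters TATAAA occurred 1 time, in Krt10, and in 13.6% of all windows.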

How the data were processed

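Poly-A RNA of mouse skin was sequenced in 19 libraries from 16 mice. The values are expected counts per gene that the authors deposited, made with Bowtie2 and RSEM against GRCm39 per the submitters' processing notes; neither label nor header names the annotation or strand setting. They were rounded and summed per mouse (3 mice had 2 libraries). Genes passing filterByExpr (15760) entered one edgeR 4.0.16 quasi-likelihood fit (R 4.3.3) with TMM scaling and group as the sole term. The 6 contrasts between groups were tested, with Benjamini-Hochberg adjustment over all genes and a threshold of 0.05. "Rose", "fell" and "changed" refer to that test. Labels call the samples biological replicates.

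Log2 CPM used a prior count of 2. All 10 members are named. From each companion list, the 3 genes with the smallest p in each comparison and an adjusted p under 0.05 are named, except 2 that are not reported here, and from likeness the leading gene. Members and lists were chosen with earlier results of these data known. Alternatives were other scalings, filters, tools (DESeq2 1.42.0, limma 3.58.1), covariates, units of replication and leaving out each mouse. The scripts were tested on simulated data.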

Additional observations from a re-analysis of the deposited data

Results flagged for a closer look

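In 36 groups of 4 or 5 mice examined, 4 held a mouse far from the others by Dixon's criterion, which chance meets in about 1 group in 20. Of these, 3 concern vismodegib mouse 9, the mouse with the lowest scaling factor (0.591): Krt14 at 31179 CPM, Krt6a at 14387 CPM and Krt6b at 28407 CPM, where the next vismodegib mouse had 14243, 8259 and 8966 CPM. The other is Krt10 in BCC mouse 8, at 4213 CPM beside 1847 CPM in the next BCC mouse.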

How the results depend on the processing

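No keratin call changed direction under any alternative. The number of keratins changed moved by over 1.5 times in these cases. For BCC against healthy it went from 2 to 1 with the replicate block and with Krt6a and Krt6b summed (added after seeing the data), and leaving out single mice gave 1 to 2. For AFL against BCC it went from 2 to 5 with DESeq2 and with all 19 libraries as replicates and to 0 with age as a covariate, and leaving out single mice gave 0 to 3. For vismodegib against BCC it went from 5 to 3 with age as a covariate, and stayed at 5 without any single mouse. For AFL against vismodegib it went from 2 to 1 with the replicate block and to 0 with 1 library per mouse, with age or days since induction as a covariate and with only the mice of both groups, and leaving out single mice gave 0 to 2. For AFL against healthy, leaving out single mice gave 3 to 6. Of the pair ratios, 35 passed with all 19 libraries as replicates, where libraries of 1 mouse count more than once, and 0 otherwise, where group sizes limit the smallest p as described above. Causes were not tested.

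Replicate numbers did not pair the mice: over 21 same-numbered pairs the correlation of deviations ran from -0.625 to 0.690, and 4 of 15 mice correlated best with their own number. Under the replicate block, Krt16 lost its call for BCC against healthy (log2 fold change 2.19, adjusted p = 0.102) and for AFL against vismodegib (-2.17, adjusted p = 0.0517), and Krt14 for AFL against healthy (1.39, adjusted p = 0.0779). Scaling by library size alone moved the median of all genes by -0.35 (log2) for vismodegib against BCC and -0.14 for AFL against BCC, and kept every keratin call of both.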
